A study of Homo sapiens with 2 samples.

Results

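The DNA repair genes described here are 56 genes that carry the main repair routes of human cells, out of 19719 protein-coding genes with a usable record. They were listed by name and grouped into 7 pathways: base excision and single-strand break repair (13 genes), mismatch repair (3), nucleotide excision repair (10), homologous recombination (14), the Fanconi pathway (4), end joining (6) and damage signaling (6). A gene was counted for a factor when any base of a peak of that factor fell less than 3 kb away from where its GRCh38 gene record begins (the 5′ end). Of the 56 genes, 19 had such promoter peaks for both PRMT6 and PARP1 (33.9%, against 13.4% of all protein-coding genes). A further 6 had them for PRMT6 alone (10.7%, against 4.88%) and 8 for PARP1 alone (14.3%, against 9.09%). The other 23 had neither (41.1%, against 72.7%).

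Each repair route acts on a different lesion. Base excision repair removes single damaged bases and seals the resulting nick, mismatch repair corrects replication errors, and nucleotide excision repair cuts out bulky adducts and ultraviolet photoproducts. Double-strand breaks are rejoined directly by end joining or copied from the sister chromatid by homologous recombination, the Fanconi pathway clears crosslinks between the strands, and damage signaling kinases and their mediators alert the cell cycle to breaks. PARP1 is the enzyme that senses strand breaks and adds poly(ADP-ribose) to itself and nearby proteins, and PRMT6 is an arginine methyltransferase that places asymmetric dimethylation on histone H3. The peaks described here are sites on the DNA at the promoters of repair genes, in cells that received no damaging treatment.

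Both libraries came from non-treated MDA-MB-231 cells, an established human cell line of triple-negative breast cancer. An antibody against PRMT6 was used for 1 library and an antibody against PARP1 for the other, both from Cell Signaling Technology, so there was no replicate and no test was made. The labels name both a CUT&Tag kit, where bound antibodies bring a transposase to nearby DNA, and adaptor ligation to immunoprecipitated DNA, so the library chemistry is uncertain. The deposited lists held 9080 peaks for PRMT6 and 11651 for PARP1, each with a −log10 score from the peak caller. The median score was 5.51 for PRMT6 and 6.48 for PARP1, and since read depth is unknown they were used only to rank peaks within their own list, rank 1 being the best. The notes name hg19, yet 55 PRMT6 and 61 PARP1 peaks ended past the chromosome ends of GRCh37, and all positions given here are in GRCh38.

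A PRMT6 promoter peak was found at 25 of the 56 repair genes (44.6%), against 18.3% of all protein-coding genes. For PARP1 the number was 27 (48.2%), against 22.5%. Promoter peaks of both factors were present at 19 repair genes (33.9%), against 13.4% of all protein-coding genes, and at 18 of them (32.1%, against 12.9%) a PRMT6 peak shared at least 1 bp with a PARP1 peak. The exact binomial 95% intervals were 31.3% to 58.5% for PRMT6, 34.7% to 62.0% for PARP1 and 21.8% to 47.8% for both. These intervals treat the genes as independent draws, cover counting error only and are no test, since the genes were chosen with results of these data known. Having a peak of one factor went together with having a peak of the other much as elsewhere in the genome. Of the repair genes with a PRMT6 peak, 76% also had a PARP1 peak, against 73.2% of all coding genes with a PRMT6 peak. In the other direction the share was 70.4% against 59.5%.

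The pathways differed in their counts, although each holds few genes. All 6 damage signaling genes had a peak of at least 1 factor, against 33 of the 56 repair genes (58.9%) and 27.3% of all protein-coding genes, and 4 had both (66.7%). Both factors were present at 4 of 10 nucleotide excision genes (40%), 5 of 14 homologous recombination genes (35.7%), 4 of 13 base excision and single-strand break genes (30.8%), 1 of 4 Fanconi genes (25%), 1 of 6 end joining genes (16.7%) and none of the 3 mismatch repair genes. The exact 95% intervals of these shares were wide and overlapped one another: 22.3% to 95.7% for damage signaling, 12.8% to 64.9% for homologous recombination and 0% to 70.8% for mismatch repair.

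**Figure D1:**
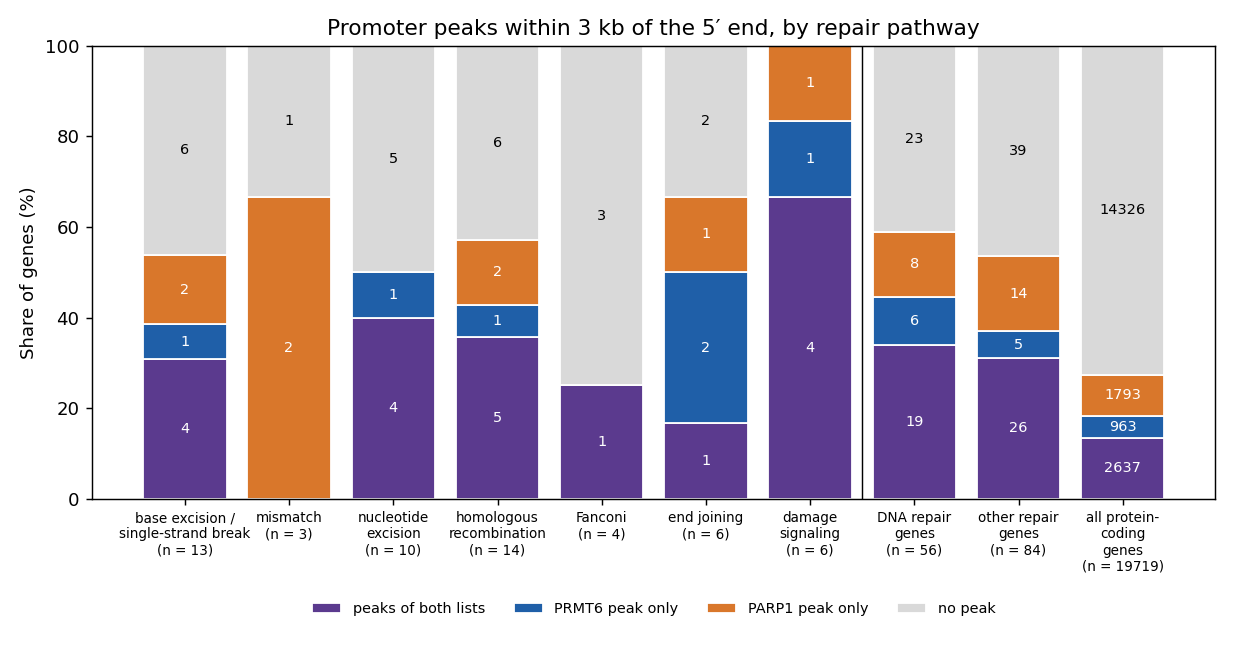
Stacked bars show the share of genes (%, vertical axis) with promoter peaks of both factors, of PRMT6 alone, of PARP1 alone or of neither, with the number of genes printed in each part. The 7 bars on the left are the repair pathways and the 3 on the right all 56 repair genes, 84 other repair genes and all 19719 protein-coding genes: both factors were present at 19 of 56 repair genes against 2637 of all genes, and the damage signaling bar is the only pathway bar with no gene without a peak.

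Promoter sequence immediately upstream of the start is shown for examples of each kind, chosen with their peaks known: MDC1, ATM and XRCC3, which had peaks of both factors, MSH6 with a PARP1 peak alone, XRCC6 with a PRMT6 peak alone, and PALB2 with neither. The sequences are from RefSeq, build GRCh38.p14, and are written 5′ to 3′ on the gene's own strand: chr6:30717282-30717531 (minus) for MDC1, chr11:108222817-108223066 (plus) for ATM, chr14:103715452-103715701 (minus) for XRCC3, chr2:47782895-47783144 (plus) for MSH6, chr22:41621045-41621294 (plus) for XRCC6 and chr16:23641311-23641465 (minus) for PALB2. Capitals mark the words CCAAT (the CCAAT box), GGGCGGG (the GC box), CCGGAAG (an ETS-type site) and TTTGAA (the core of the cell cycle homology region), on either strand, so that ATTGG and CCCGCCC are the same boxes read on the other strand.
MDC1: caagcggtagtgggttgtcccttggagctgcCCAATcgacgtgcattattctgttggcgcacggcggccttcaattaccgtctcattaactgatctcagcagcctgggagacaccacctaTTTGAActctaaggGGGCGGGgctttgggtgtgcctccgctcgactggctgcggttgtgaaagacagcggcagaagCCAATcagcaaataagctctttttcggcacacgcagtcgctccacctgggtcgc
ATM: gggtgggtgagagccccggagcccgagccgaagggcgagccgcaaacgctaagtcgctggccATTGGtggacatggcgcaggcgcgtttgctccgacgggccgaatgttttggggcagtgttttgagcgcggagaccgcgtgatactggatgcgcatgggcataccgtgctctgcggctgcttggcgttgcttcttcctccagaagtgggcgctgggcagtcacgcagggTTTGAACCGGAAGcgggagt
XRCC3: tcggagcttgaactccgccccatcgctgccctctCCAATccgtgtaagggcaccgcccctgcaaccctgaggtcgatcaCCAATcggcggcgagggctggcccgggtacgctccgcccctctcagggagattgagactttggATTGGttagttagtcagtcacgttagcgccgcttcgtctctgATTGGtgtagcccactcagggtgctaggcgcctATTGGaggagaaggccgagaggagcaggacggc
MSH6: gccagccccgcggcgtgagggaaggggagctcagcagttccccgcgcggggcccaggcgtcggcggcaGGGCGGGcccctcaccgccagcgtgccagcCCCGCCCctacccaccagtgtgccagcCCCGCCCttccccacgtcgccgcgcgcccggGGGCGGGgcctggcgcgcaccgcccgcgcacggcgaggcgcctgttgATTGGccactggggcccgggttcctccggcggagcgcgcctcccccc
XRCC6: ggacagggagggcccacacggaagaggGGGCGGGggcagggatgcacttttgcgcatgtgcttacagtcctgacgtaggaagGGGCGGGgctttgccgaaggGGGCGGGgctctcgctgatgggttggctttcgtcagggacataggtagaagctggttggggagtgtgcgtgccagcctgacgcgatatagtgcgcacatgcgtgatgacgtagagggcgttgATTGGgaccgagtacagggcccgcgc
PALB2: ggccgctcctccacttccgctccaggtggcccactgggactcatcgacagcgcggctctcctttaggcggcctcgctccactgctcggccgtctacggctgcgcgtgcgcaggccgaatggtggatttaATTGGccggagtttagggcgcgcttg

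Of these stretches of 250 bases, the PRMT6 peak covered 233 in MDC1 and all 250 in ATM, XRCC3 and XRCC6, and none in MSH6. The PARP1 peak covered all 250 bases in MDC1 and ATM, 246 in XRCC3 and 246 in MSH6, and none in XRCC6. The 155 bases of PALB2 lay under no peak of either list. The 3 promoters with both factors thus carried their peaks on the same bases, directly upstream of the start, and each holds at least 1 CCAAT box, as do MSH6, XRCC6 and PALB2.

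Damage signaling held the best-ranked promoter peaks of the 56 genes. MDC1, the mediator that binds phosphorylated H2AX beside a break, had PRMT6 peak 32 of 9080 (score 29.7, chr6:30717299-30717865) and PARP1 peak 86 of 11651 (score 26.7, chr6:30717240-30717779). These are the top 0.352% and the top 0.738% of their lists, and the peaks shared 480 bp. The PRMT6 peak stopped 18 bp short of the 5′ end on its upstream side, which the PARP1 peak spanned. A second PRMT6 peak of rank 2598 lay 2814 to 3139 bp upstream, partly outside the limit and without a PARP1 peak over it. ATM, the kinase that responds to double-strand breaks, came next, with PRMT6 peak 306 (score 15.9, chr11:108222656-108223105) and PARP1 peak 183 (score 21.6, chr11:108222671-108223173). Both spanned the 5′ end and shared 434 bp.

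The 4 remaining signaling genes ranked far lower. CHEK2, the checkpoint kinase activated by ATM, had PRMT6 peak 3592 (score 5.96, chr22:28741780-28742068) across its 5′ end. Its PARP1 peaks were peak 7221 (score 5.77, chr22:28742450-28742650), which lay 616 to 816 bp upstream, and peak 9908 (chr22:28741843-28742043), and only the weaker one overlapped the PRMT6 peak. TP53BP1, which guides break repair toward end joining, had PRMT6 peak 4600 (score 5.37, chr15:43510592-43510998) and PARP1 peak 8153 (score 5.38, chr15:43510666-43511102), sharing 332 bp. The replication stress kinase and its effector kinase were split between the lists. ATR had only PRMT6 peak 5468, across its 5′ end, and its nearest PARP1 peak was 8047 bp away. CHEK1 had only PARP1 peak 4094, which began 803 bp downstream of the record's 5′ end. That peak covered all CHEK1 starts of the RefSeq promoter table, which lie 1088 to 1220 bp downstream of the record's 5′ end.

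**Figure D2:**
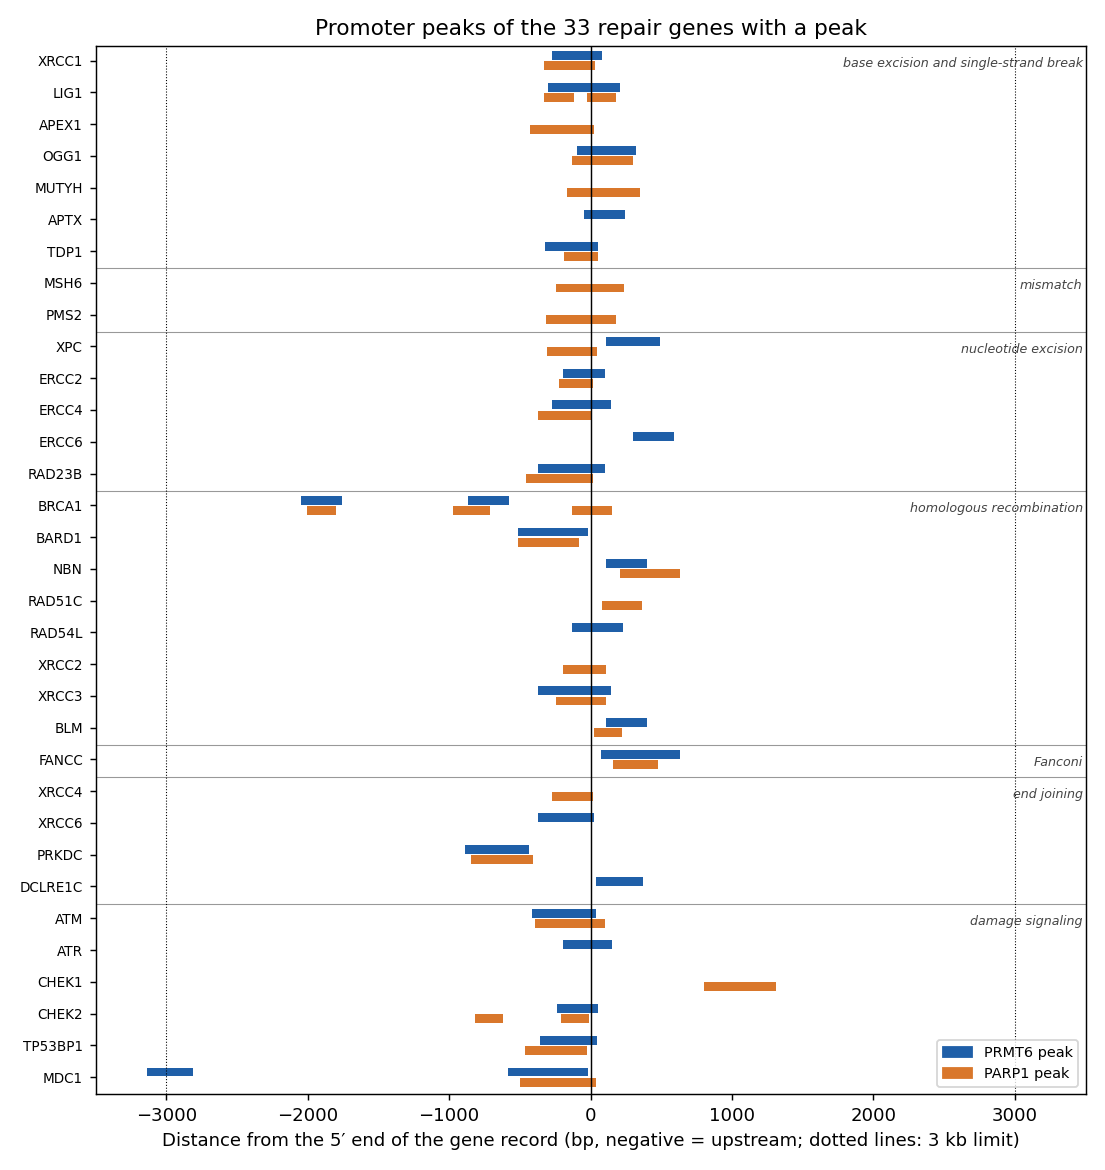
Horizontal bars mark every PRMT6 peak (blue) and PARP1 peak (orange) within 3 kb of the 5′ end of the 33 repair genes with a peak, on a horizontal axis of distance in bp (negative values upstream), with dotted lines at the 3 kb limit. Most peaks sit on or just upstream of the 5′ end, while the peaks of BRCA1 reach 2044 bp upstream, the second PRMT6 peak of MDC1 2814 to 3139 bp upstream and the PARP1 peak of CHEK1 803 to 1311 bp downstream. The CHEK1 peak covers the starts listed for that gene in the RefSeq promoter table.

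Homologous recombination genes showed all 4 outcomes. BARD1, the partner that forms the ubiquitin ligase with BRCA1, had PRMT6 peak 357 (score 15.1, chr2:214809702-214810198) and PARP1 peak 1925 (score 10.3, chr2:214809765-214810198), sharing 433 bp and ending 19 and 82 bp upstream of the 5′ end. XRCC3, which acts in strand exchange, had PRMT6 peak 365 (score 15.0, chr14:103715304-103715819) and PARP1 peak 1102 (score 12.6, chr14:103715339-103715697), both across the 5′ end. These 2 genes were in the top 10% of the PRMT6 list, at 3.93% and 4.02%. The helicase gene BLM ranked low for both, with PRMT6 peak 6841 (score 4.48, chr15:90717455-90717743) and PARP1 peak 9451 (score 4.79, chr15:90717369-90717569), downstream of the 5′ end. NBN, the subunit of the MRN complex that binds phosphorylated partners, had PRMT6 peak 7944 (score 4.23, chr8:89984268-89984556) and PARP1 peak 4563 (score 7.19, chr8:89984033-89984461), also downstream.

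A single factor was listed at 3 genes of this pathway. RAD54L, a motor protein that moves along DNA during recombination, had PRMT6 peak 4600 across its 5′ end. RAD51C and XRCC2, which act in strand exchange, had PARP1 peaks 7034 and 6943. No peak lay within 3 kb of the record start of BRCA2, which acts on resected ends, of PALB2, which links BRCA1 with BRCA2, of the MRN subunits RAD50 and MRE11, of the strand exchange gene RAD51D or of the annealing protein RAD52. The nearest peaks to the PALB2 start were 44815 bp (PRMT6) and 83606 bp (PARP1) away. Counted at their record starts, BRCA1 and its partners therefore did not follow one pattern, with both factors at BRCA1 and BARD1 and neither at PALB2 and BRCA2. The BRCA1 outcome rests on the start chosen, since another listed BRCA1 start had a PARP1 peak alone.

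BRCA1, MRE11, ERCC1 and RAD52 showed how far the outcome rests on which start is taken as the promoter. The record of BRCA1 begins at chr17:43170327, 82 bp from the divergent start of NBR1, while the promoter table lists a second BRCA1 start 44963 bp downstream, 193 bp from the opposite start of NBR2. Around the record start lay PRMT6 peaks 2871 (score 6.73, chr17:43172083-43172371) and 6832 (chr17:43170904-43171192) and PARP1 peaks 1308 (score 11.8, chr17:43171035-43171302), 7974 (chr17:43172130-43172330) and 9679 (chr17:43170173-43170455). Both PRMT6 peaks overlapped a PARP1 peak, and these overlapping peaks lay 577 to 2044 bp upstream, beyond the start of NBR1. At the second start, PARP1 peak 3985 (chr17:43125357-43125639) spanned the site and the nearest PRMT6 peak was 45540 bp away. The 300-base windows of the starts aligned over 155 columns with 137 identical (88.4%), and how reads that map to more than 1 place were handled is not given in the sources used here. The first line below is the stretch from the record start up to NBR1 (chr17:43170328-43170408, minus strand) and the second the stretch from the other start toward NBR2 (chr17:43125365-43125556, minus strand). All 81 and 192 bases lay under PARP1 peaks and none under a PRMT6 peak. Capitals mark a CCAAT box.
BRCA1 record start: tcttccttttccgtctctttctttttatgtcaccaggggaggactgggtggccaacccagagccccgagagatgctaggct
BRCA1 second start: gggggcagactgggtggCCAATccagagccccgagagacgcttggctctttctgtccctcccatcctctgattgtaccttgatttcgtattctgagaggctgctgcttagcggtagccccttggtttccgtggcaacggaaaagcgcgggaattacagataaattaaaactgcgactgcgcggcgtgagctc

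MRE11 encodes the nuclease of the MRN complex, and the study reported the MRE11 promoter as enriched in quantitative ChIP. The study also reported more MRE11 mRNA after knockdown of PRMT6 or PARP1. Here the gene counted as lacking a peak because its record begins at chr11:94512412, far upstream of the start in the promoter table. At that table start, 18568 bp downstream, PRMT6 peak 4084 (score 5.62, chr11:94493829-94494159) and PARP1 peak 2108 (score 9.92, chr11:94493809-94494147) both spanned the site and overlapped. ANKRD49 begins 140 bp away on the opposite strand. The stretch between the starts is shown because every one of its 139 bases lay under both peaks (chr11:94493845-94493983, minus strand, RefSeq GRCh38.p14, capitals for CCAAT and GC boxes on either strand).
MRE11: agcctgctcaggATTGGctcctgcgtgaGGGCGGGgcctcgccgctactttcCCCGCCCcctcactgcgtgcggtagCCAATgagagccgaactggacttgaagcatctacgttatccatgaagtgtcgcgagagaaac

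RAD52 and ERCC1 also had peaks at a start inside the record. The RAD52 start 41428 bp downstream of the record's 5′ end was spanned by PRMT6 peak 2628 (chr12:949592-949880), with the nearest PARP1 peak 35109 bp away. For ERCC1, PARP1 peak 4341 (chr19:45423632-45423914) ended 3 bp from a start 27630 bp downstream. Counting any listed start gave 27 genes for PRMT6, 29 for PARP1 and 20 for both, against 19.6%, 24.1% and 14.4% of all coding genes. MRE11 was the gene that joined the group with both.

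End joining was split between the lists. PRKDC, the catalytic subunit of the DNA-dependent protein kinase, was the only member with both, at PRMT6 peak 3023 (score 6.46, chr8:47960574-47961026) and PARP1 peak 3581 (score 8.03, chr8:47960546-47960979). These lay 438 to 890 bp and 410 to 843 bp upstream, and MCM4 begins 805 bp away on the opposite strand. Both peaks covered the MCM4 start and neither reached that of PRKDC, so they cannot be assigned to PRKDC alone. XRCC6 (Ku70), 1 subunit of the ring that caps broken ends, had PRMT6 peak 2348 (chr22:41620927-41621319), and the end-trimming nuclease gene DCLRE1C (Artemis) PRMT6 peak 6633. The scaffold gene XRCC4 had PARP1 peak 7034. XRCC5 (Ku80) had no promoter peak, its nearest PARP1 peak lying 5453 bp from the 5′ end inside the gene, and the nearest peaks to LIG4, the ligase of this route, were 219108 bp (PRMT6) and 382378 bp (PARP1) away. The Ku subunits act as a pair, and a PRMT6 peak was listed at only 1 of the 2 genes. That peak, at XRCC6, also covered the start of DESI1, 252 bp away on the opposite strand, so it cannot be assigned to XRCC6 alone.

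Of the Fanconi genes, FANCC alone had peaks. This subunit of the core ubiquitin ligase had PRMT6 peak 6748 (score 4.50, chr9:95317077-95317635) and PARP1 peak 1524 (score 11.2, chr9:95317232-95317552), which shared 320 bp downstream of the 5′ end. A listed FANCC start 455 bp downstream of the record's 5′ end lay under both peaks. Another core subunit, FANCA, and the FANCD2 and FANCI proteins, which the ligase modifies as a pair, had no promoter peak.

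In base excision and single-strand break repair, both factors were listed at LIG1, XRCC1 and TDP1, which act on nicks and broken ends, and at OGG1, which starts the pathway. LIG1, the ligase that seals nicks, had PRMT6 peak 649 (score 12.1, chr19:48170134-48170646) and PARP1 peaks 3398 (score 8.16, chr19:48170463-48170672) and 9639 (chr19:48170166-48170366) that both overlapped it. XRCC1, the scaffold recruited by PARP1 activity, had PRMT6 peak 1139 (score 9.84, chr19:43575446-43575799) and PARP1 peak 3398 (score 8.16, chr19:43575498-43575859), sharing 301 bp. TDP1, which clears trapped topoisomerase from DNA ends, had PRMT6 peak 1177 (score 9.82, chr14:89954645-89955023) and PARP1 peak 2825 (score 8.85, chr14:89954779-89955021). The best PRMT6 peaks of these 3 genes lay between the top 7.15% and the top 13.0% of their list and the best PARP1 peaks between 24.2% and 29.2%, while the weaker PARP1 peak of LIG1 stood at 82.7%. OGG1, the glycosylase for oxidized guanine, was lower in both, at PRMT6 peak 4815 (score 5.20, chr3:9749858-9750275) and PARP1 peak 6998 (score 5.86, chr3:9749819-9750255).

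The remaining 9 genes of this pathway had 1 factor or none. APEX1, the endonuclease that cuts at abasic sites, had PARP1 peak 4036, with the nearest PRMT6 peak 6226 bp away, and the adenine glycosylase gene MUTYH had PARP1 peak 8153. APTX, which removes blocked ends from nicks, had PRMT6 peak 5718. The glycosylase genes UNG, NTHL1 and NEIL1, the polymerase gene POLB, the ligase gene LIG3 and the flap nuclease gene FEN1 had no promoter peak, and only NTHL1 had a peak within 10 kb (PARP1, 6447 bp). XRCC1 also had overlapping peaks of both factors inside the gene, at PRMT6 peak 791 (chr19:43562522-43562952) and PARP1 peak 1374 (chr19:43562705-43563097), which ranked above its promoter peaks.

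In nucleotide excision repair, both factors were listed at RAD23B, ERCC4, ERCC2 and XPC. RAD23B, the partner of XPC in finding distorted DNA, had the best ranks, at PRMT6 peak 992 (score 10.4, chr9:107282906-107283383) and PARP1 peak 1102 (score 12.6, chr9:107282821-107283299), sharing 393 bp across the 5′ end. ERCC4 (XPF), a subunit of the nuclease that cuts 5′ of the lesion, had PRMT6 peak 2203 (score 7.49, chr16:13919882-13920297) and PARP1 peak 3581 (score 8.03, chr16:13919783-13920158). ERCC2 (XPD), a helicase of TFIIH, had PRMT6 peak 2907 (score 6.61, chr19:45370467-45370765) and PARP1 peak 8871 (score 5.12, chr19:45370556-45370794). XPC itself was the only one of the 19 genes whose peaks did not meet. Its PRMT6 peak 6841 (score 4.48, chr3:14178112-14178493) lay 108 to 489 bp into the gene. PARP1 peak 2509 (score 9.28, chr3:14178558-14178908) spanned the start, with 65 bp between the peaks.

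ERCC6 (CSB), which couples repair to transcription, had PRMT6 peak 5621 across a listed start 417 bp downstream of its 5′ end. Its partner gene ERCC8 (CSA), the damage-binding gene XPA, the TFIIH helicase gene ERCC3 and the nuclease gene ERCC5 had no promoter peak. ERCC1, the partner of XPF in the nuclease, was also without one. Its nearest peaks, 4074 bp (PRMT6) and 4148 bp (PARP1) upstream of the record, were high in both lists, at PRMT6 peak 315 (chr19:45455621-45456067) and PARP1 peak 175 (chr19:45455695-45456052). A further overlapping pair lay inside the record, at PRMT6 peak 382 (chr19:45443433-45443874) and PARP1 peak 2688 (chr19:45443559-45443799).

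None of the 3 mismatch repair genes had a PRMT6 promoter peak. Of 5 other genes grouped under mismatch repair, 3 had a PRMT6 promoter peak (60%), namely PMS1, MLH3 and MSH5. MSH6, a subunit that recognises mismatches, had PARP1 peak 5722 (chr2:47782899-47783383), and PMS2, an endonuclease subunit, PARP1 peak 4094 (chr7:6008929-6009424), both across the 5′ end. MSH3, the subunit for insertion and deletion loops, had neither, and its nearest PRMT6 peak lay 3270 bp away, the closest of any repair gene outside the limit. Inside it, the widest gap between a record's 5′ end and the gene's nearest peak was the 803 bp of CHEK1, whose peak covered its listed starts. With 3 genes the exact interval for a PRMT6 peak ran from 0% to 70.8%, and a difference from the other pathways was not tested.

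**Figure D3:**
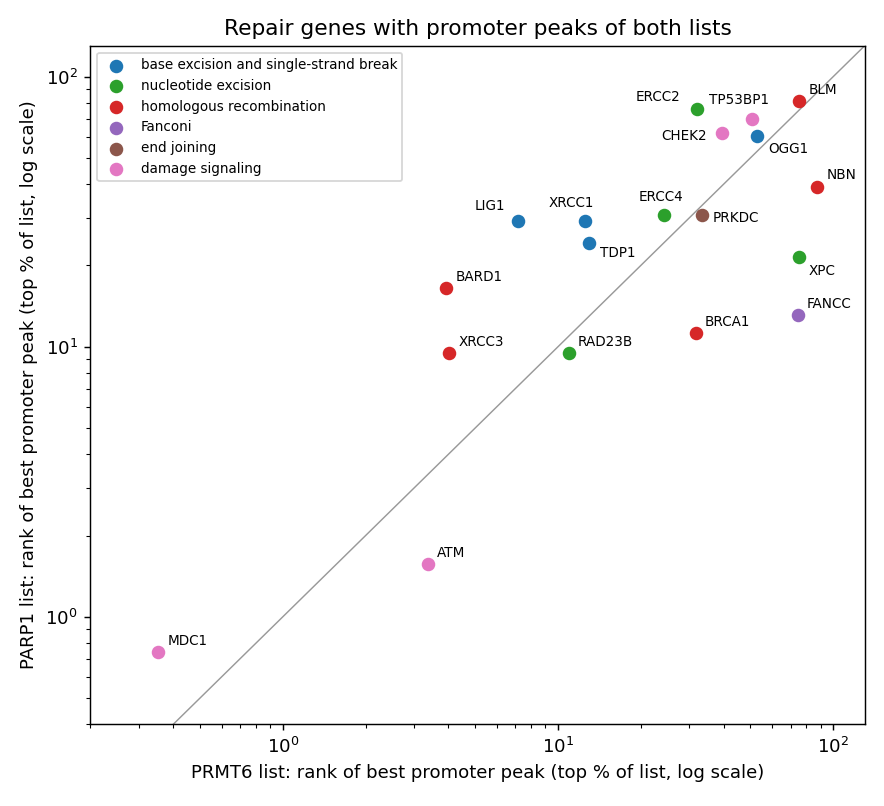
Each point is 1 of the 19 repair genes with promoter peaks of both factors, placed by the rank of its best PRMT6 peak (horizontal) and best PARP1 peak (vertical), both as a percentage of the list on log axes with the best ranks at the lower left and the diagonal marking equal standing. MDC1 and ATM stand apart at the lower left, and 12 of the 19 genes (63.2%) lie above the diagonal, where the PRMT6 peak stood higher in its own list than the PARP1 peak, against 57.1% of all coding genes with both.

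Over all repair genes with a peak, MDC1 and ATM included, the standing of the peaks in their lists was close to that of promoter peaks in general. The median rank of the best promoter peak was the top 33.3% for PRMT6, against 27.8% over all coding genes with such a peak, and the top 34.6% for PARP1, against 37.7%. The top 10% of the list held 5 of 25 PRMT6 peaks (20%, against 19.9%) and 4 of 27 PARP1 peaks (14.8%, against 14.9%). The median standing of repair genes was thus lower than that of all genes for PRMT6 and higher for PARP1.

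The peaks also sat close to the start. The median distance from the peak centre to the 5′ end was 155 bp for PRMT6 (186 bp over all coding genes with a peak) and 184 bp for PARP1 (182 bp). The centre was within 500 bp at 23 of 25 genes for PRMT6 (92%, against 78.4%) and at 23 of 27 for PARP1 (85.2%, against 78.1%). Most centres lay upstream, at 64% of the PRMT6 genes (68.6% over all coding genes with a peak) and 74.1% of the PARP1 genes (68.5%). The median width of the best PARP1 peak was 375 bp at repair genes and 303 bp over all coding genes, while the PRMT6 medians were 381 and 380 bp. The best-ranked peaks of both factors overlapped at 16 of the 19 genes (84.2%, against 94.5%), the exceptions being BRCA1, CHEK2 and XPC. Beyond the promoter window, 10 repair genes had a PRMT6 peak inside the record (17.9%, against 13.2%) and 12 a PARP1 peak (21.4%, against 14.6%).

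Many repair genes share their promoter with a neighbor on the opposite strand, where a peak cannot be assigned to 1 gene. A protein-coding 5′ end lay head to head within 1 kb at 27 of the 56 genes (48.2%), against 13.7% of all coding genes. Among the genes with both factors these were XRCC1 (with PINLYP), LIG1 (ZSWIM9), TDP1 (EFCAB11), XPC (LSM3), BRCA1 (NBR1), XRCC3 (ZFYVE21), PRKDC (MCM4), ATM (NPAT), CHEK2 (HSCB) and TP53BP1 (MAP1A). Across all coding genes, both factors were present at 28% of head-to-head genes and at 11.1% of the others. For repair genes the shares were 37% (10 of 27) and 31% (9 of 29). The 9 genes with both factors and no such protein-coding neighbor were MDC1, BARD1, NBN, BLM, FANCC, OGG1, ERCC2, ERCC4 and RAD23B. Of these, ERCC4, BLM and BARD1 have another kind of start on the opposite strand in the promoter table, at 76 bp (LOC124903647), 206 bp (CRTC3-AS1) and 546 bp (SNHG31).

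The promoters of repair genes were also richer in CpG, the dinucleotide of CpG islands. In the 300 bases of the promoter table, available for 51 of the 56 genes, the median was 26 CpG dinucleotides, against 22 over 15842 coding promoters. At TDP1, BRCA2, MRE11, RAD52, CHEK1 and CHEK2 the table's nearest start was not the record's 5′ end. Genes with both factors had a median of 29 (range 13 to 41) and those with neither 26 (range 5 to 42), so the ranges overlapped almost wholly. Among promoters with 23 to 32 CpG, 10 of 22 repair genes had both factors (45.5%, against 22.1% of coding genes). With 9 to 22 CpG it was 5 of 16 (31.2%, against 15.3%), with 33 to 69 it was 2 of 11 (18.2%, against 16.7%), and with 0 to 8 it was 0 of 2 (against 3.01%). Whether CpG content or shared promoters account for the counts was not tested.

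**Figure D4:**
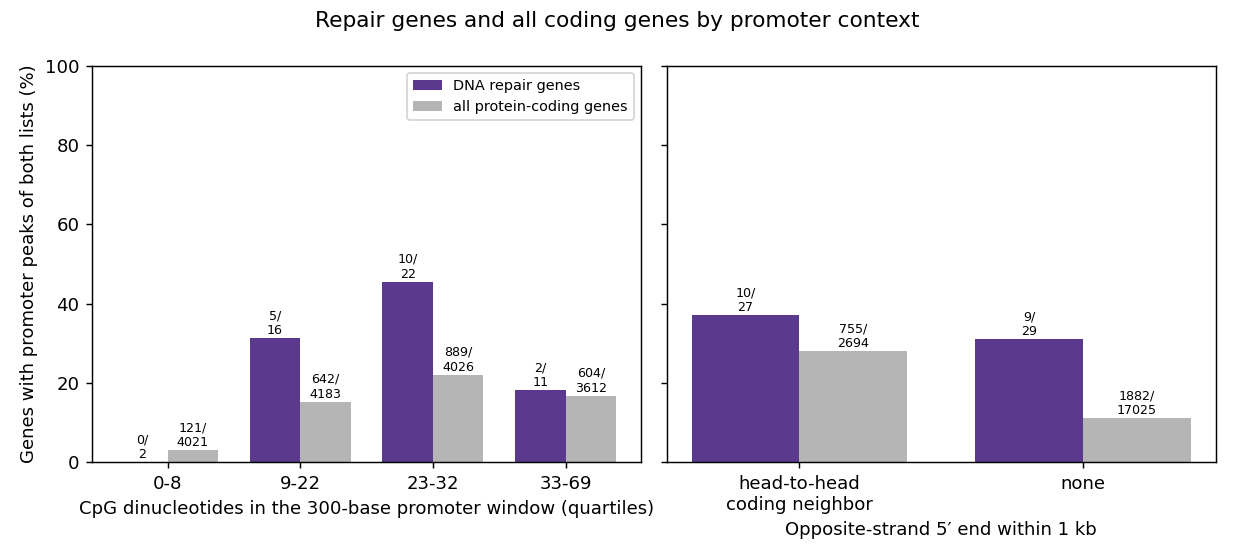
Bars give the share of genes (%) with promoter peaks of both factors among repair genes (purple) and all protein-coding genes (gray), by the number of CpG dinucleotides in the promoter window (left) and by the presence of a head-to-head coding neighbor (right), with the counts above each bar. Repair genes stand above all genes at 9 to 22 and 23 to 32 CpG (45.5% against 22.1% in the latter) and in both neighbor groups (31% against 11.1% without a neighbor), and are close to them at 33 to 69 CpG (18.2% against 16.7%).

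Short sequence words were counted on both strands of the same windows, with no test. The ETS-type word CCGGAAG was in 19 of 51 repair promoters (37.3%, against 14.2% of all coding promoters), CCAAT in 25 (49%, against 36.4%), the GC box GGGCGGG in 28 (54.9%, against 44.1%) and the E2F-type word TTTCCCGC in 6 (11.8%, against 2.17%). Like TTTCCCGC, the other words were each in 7 or fewer repair promoters. These were the E-box CACGTG (13.7%, against 8.82%), the NRF1-type word GCATGCGC (9.8%, against 4.28%) and the cyclic AMP response element TGACGTCA (5.88%, against 2.56%). TTTGAA (11.8%, against 12.2%), the E2F-type word TTTGGCGC (3.92%, against 0.884%), the YY1-type word AAGATGGC (1.96%, against 3.86%) and CTCGCGAG (1.96%, against 1.53%) completed the list. Among repair promoters the ETS-type word was in 6 of 17 promoters with both factors (35.3%) and in 10 of 20 with neither (50%), whereas over all coding promoters it was more frequent with both factors than with neither (19% against 11.5%). The GC box was in 13 of 17 (76.5%) against 6 of 20 (30%), and over all coding promoters the shares were 59.2% and 39.1%. TTTGAA was in 5 of 17 and 0 of 20, whereas over all coding promoters it was less frequent with both factors than with neither (9% against 13.4%). The 20 include MRE11, whose table start lay under peaks of both factors. Nor did every window of the 17 lie under its peaks. The TDP1 table start was 904 bp from the PRMT6 peak and 906 bp from the PARP1 peak, and its window holds the GC box and TTTGAA. A word match is a description of the sequence and not a binding site.

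A wider list of 84 other repair genes in the same 7 pathways also had shares above those of all coding genes. Of these, 31 had a PRMT6 promoter peak (36.9%, against 18.3%) and 40 a PARP1 peak (47.6%, against 22.5%). Both were present at 26 (31%, exact 95% interval 21.3% to 42%, against 13.4%), and the peaks overlapped at all 26. Both factors were present at 7 of 14 other Fanconi genes and 5 of 13 in base excision and single-strand break repair. They were present at 2 of 5 grouped under mismatch repair, 2 of 5 in end joining and 5 of 17 in homologous recombination. Damage signaling had 4 of 17 (8 with at least 1 factor) and nucleotide excision repair 1 of 13. The order of the pathways was thus not that of the first list, where damage signaling and nucleotide excision had the highest shares. PARP2, the enzyme most closely related to PARP1 in break sensing, had the best mean rank, with PRMT6 peak 65 (chr14:20343012-20343613) and PARP1 peak 13 (chr14:20342944-20343591). Neither peak spanned the PARP2 5′ end, the PRMT6 peak stopping 22 bp and the PARP1 peak 44 bp upstream of it. Only protein-coding neighbors were searched for here, so these peaks may belong to a noncoding start nearby. PARP2 was followed by the Fanconi gene CENPX (PRMT6 peak 601, PARP1 peak 761), which shares its promoter with LRRC45. Next came H2AX, the histone that MDC1 reads once it is phosphorylated (PRMT6 peak 529, PARP1 peak 1102). MDC1 and H2AX thus both carried overlapping promoter peaks of both factors, a pair picked out after the ranks were seen. Of the 17 other damage signaling genes, which include H2AX, 8 had a promoter peak (47.1%, against 27.3% of all coding genes). The other 9 had none (52.9%, against 72.7%).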

How the data were processed

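MDA-MB-231 cells were profiled with 1 PRMT6 and 1 PARP1 library. The authors called peaks in each library with MACS and deposited for each peak a chromosome, start, end and a −log10 score, of which the sources used here do not say whether it rests on p or q. The submitters' processing notes name CASAVA 1.4, Bowtie 0.12.8, MACS, MACS2 and hg19. Thresholds, any control library and duplicate handling are not given in the sources used here. With GRCh38 records, 30.1% of PRMT6 and 29.5% of PARP1 peaks were at most 1 kb from a gene start, against 4.04% and 3.94% with GRCh37 records, so GRCh38 was used.

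Gene 5′ ends came from RefSeq records (GRCh38.p14). The strand came from the RefSeq promoter table for 15842 genes and otherwise from GENCODE by symbol. Both agreed for 15225 of 15288 genes, and 318 of 20037 coding records had no strand and were left out. Counts, exact Clopper-Pearson 95% intervals and words were computed in Python 3.11.15 with pandas 2.3.3 and scipy 1.17.1, and overlaps were checked on simulated peaks with bedtools 2.31.1. Listed starts were used as they are. Placement of peaks in exons or introns was not analysed here.

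Repair genes and lists were chosen with earlier results of these data known. All 56 genes are named, with positions and scores for those with both factors, ranks for those with 1, distances within 10 kb for those with none, and the 3 best-ranked other repair genes. Peaks inside records or at other starts, and the nearest peaks beyond 10 kb, were named after their values were seen. Alternatives covered the window, score, list length, peak width, start sites, build and overlap rule.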

Additional observations from a re-analysis of the deposited data

How the results depend on the processing

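Of 51 alternative values, 39 were within 1.5 times the reported count and 12 were not. In parentheses are shares of repair genes and of all coding genes. Windows of 1 kb, of 5 kb and of 2 kb upstream to 500 bp downstream gave 19 (33.9%, 12%), 20 (35.7%, 14.6%) and 19 (33.9%, 11.9%) repair genes with both factors. Lists of equal length gave 18 (32.1%, 12.4%), and any listed start 20 (35.7%, 14.4%). Without peaks of the smallest width, PRMT6 fell to 19 (33.9%, 13.2%) and both to 15 (26.8%, 10.3%). With the higher-scoring 50% of each list, 14 repair genes had a PRMT6 peak (25%, 13.4%), 18 a PARP1 peak (32.1%, 14%), 11 both (19.6%, 8.99%) and 10 overlapping peaks (17.9%, 8.86%). Both factors were then present at 2 nucleotide excision, 3 homologous recombination, 0 Fanconi and 2 damage signaling genes. With gene records of GRCh37, the build in the notes, the counts were 4 for PRMT6 (7.14%, 4.55%), 4 for PARP1 (7.14%, 5.51%), 3 for both (5.36%, 2.84%) and 3 for overlapping peaks (5.36%, 2.72%). Genes without a head-to-head neighbor gave 9 of 29 (31%, 11.1%), fewer by construction. This last setting, starts moved by 1 base (19) and table starts alone (18 of 51) were chosen after seeing the data. The order of the pathways rests on single genes. No paired analysis was possible because there was 1 library for each factor, and no replicate could be left out.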
